A study of Mus musculus with 6 samples.

Results

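Keratins of the ureteric epithelium were followed in mouse ureter explants treated with LiCl. The set comprised 10 keratin genes, *Krt4*, *Krt5*, *Krt7*, *Krt8*, *Krt13*, *Krt14*, *Krt15*, *Krt18*, *Krt19* and *Krt20*, chosen by name and matched by symbol to 10 of the 56748 gene identifiers in the count table. A gene was taken as measured when it had at least 10 counts in at least 3 of the 6 samples, which held for 9 of the 10 genes. *Krt13* was the exception. Because the rule could be met by samples of 1 group alone, *Krt14* counted as measured through the LiCl samples and *Krt20* through the 3 controls and 1 LiCl sample.

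The explants were whole ureters dissected from wildtype NMRI embryos at E12.5 and kept in organ culture on membranes for 18 h. The control group of 3 samples received water, and the LiCl group of 3 samples received 15 mM LiCl. Lithium inhibits the kinase GSK3B and is used to activate canonical WNT signaling, and the study profiled the explants to learn how this activation affects genes of ureter differentiation. RNA was read by poly-A RNA-Seq of the whole explant, which contains epithelium, mesenchyme and outer cells together. No cell type was isolated, so fewer epithelial cells and less keratin RNA per epithelial cell cannot be told apart. The labels do not say whether the samples came from separate cultures, and p-values measure the spread between these samples only.

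Keratins are the intermediate filament proteins of epithelial cells. A filament is built from a type I (acidic) and a type II (basic to neutral) chain, and the chains are used in characteristic pairs that change with the kind of epithelium. Simple epithelia such as the early ureteric epithelium use KRT8 and KRT18, often with KRT7 and KRT19. Basal cells of stratified epithelia use KRT5 with KRT14 or KRT15, KRT4 and KRT13 form the pair of non-cornified stratified linings, and KRT20 is found in the superficial cells of the mature urothelium.

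Total counts lay between 28473436 and 31266945 per sample, and no sample was a copy of another, since replicates differed beyond counting noise (chi-square divided by its degrees of freedom, 5.93 to 14.5). Epithelial and mesenchymal markers were both abundant. The summed level of 15 epithelial genes was 944.3 to 1070.0 CPM (counts scaled to a common library size) in the controls and 814.0 to 823.8 in the LiCl samples, and that of 10 mesenchymal genes was 7470.0 to 8358.0 and 5103.0 to 5696.0. LiCl replicates 1 and 3 stood apart from the other samples by their skeletal muscle genes. *Myh3*, an embryonic myosin, had 6, 30 and 11 counts in control replicates 1 to 3, against 397, 22 and 814 in the LiCl replicates in the same order. All 6 listed muscle genes were called higher (2.74% of all tested genes), with a median of 2.95 on the log2 scale. Values without these 2 samples are therefore given for the keratins. That fit has LiCl replicate 2 as its only LiCl sample, takes the spread from the 3 controls and assumes that the lone sample varies like them, so a call lost in it is not evidence about the samples left out.

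Across the 18188 genes tested with edgeR's quasi-likelihood test, a gene was called when it had a Benjamini-Hochberg adjusted p under 0.05 and changed by more than 1 on the log2 scale. Of the 9 keratins tested, 3 were called lower (*Krt4*, *Krt7* and *Krt19*) and 0 higher, where 4.59% of all tested genes were called lower and 2.74% higher. Without a fold change minimum, 6 keratins passed lower and 0 higher, beside 22.4% and 21.1% of all genes. DESeq2 called the same 3 genes lower and 0 higher, and 0 keratins rose at an unadjusted p under 0.05 with either tool. The percentages of all genes called are those of edgeR. In 7 keratins every LiCl sample was below every control (27.8% of all genes), and in 1, *Krt14*, every LiCl sample was above (26.4%). *Krt14* had met the rule for measured genes only through the LiCl samples. The median log2 fold change of the 9 was -0.81, whereas that of all tested genes was -0.01. The median is the value of *Krt20*, which had few counts and did not pass.

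Levels were compared between genes as FPKM, which divide counts by gene length. In the controls, the keratins fell into 3 ranges. *Krt8* and *Krt18* were among the most abundant transcripts of the explant, with 160.6 ± 26.4 and 146.9 ± 21.6 FPKM (mean ± SD, n = 3), which placed them at ranks 142 and 165 of the tested genes. *Krt19* with 47.6 ± 8.51, *Krt7* with 18.0 ± 1.72 and *Krt15* with 6.21 ± 1.54 FPKM formed the middle range. *Krt4*, *Krt5*, *Krt20* and *Krt14* lay between 0.915 and 0.107 FPKM, and *Krt13* had at most 2 counts in any sample. Each gene was above the next one in all 3 controls, but the ranges of *Krt8* and *Krt18*, of *Krt4* and *Krt5* and of *Krt14* and *Krt13* overlapped. In the LiCl samples *Krt5* stood before *Krt4*, with overlapping ranges, and *Krt14* before *Krt20*. The plot of FPKM by sample shows this order, with the red points below the blue ones in the 5 abundant genes.

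**Figure D1:**
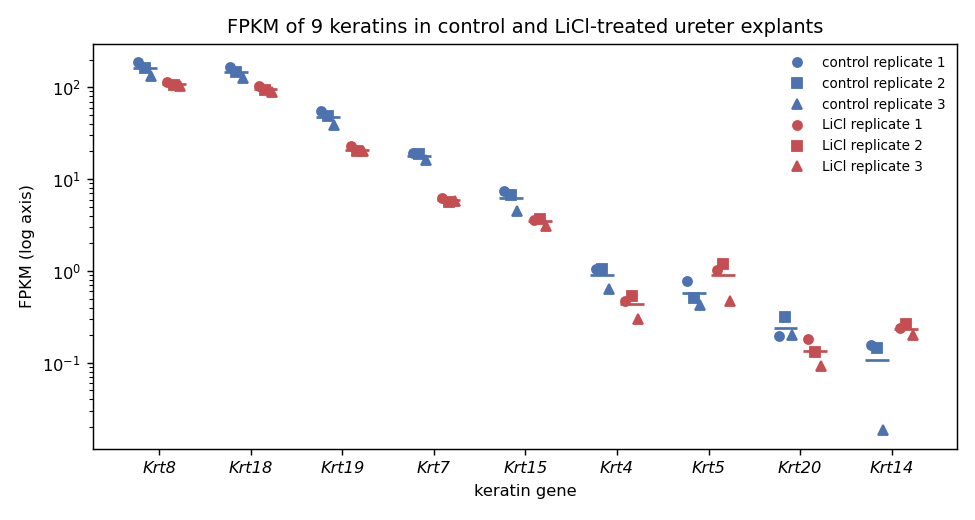
FPKM (log axis) of 9 keratins in each control (blue) and LiCl (red) sample, with horizontal lines for the means of 3 samples; *Krt13*, with no more than 2 counts in any sample, is not drawn. Control means run from 160.6 FPKM for *Krt8* to 0.107 for *Krt14*, and the groups overlap in *Krt5* only.

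*Krt8* and *Krt18*, the pair of simple epithelia, were both lower with LiCl. *Krt8* (ENSMUSG00000049382), the type II chain, had 372.2, 317.2 and 264.6 CPM in control replicates 1 to 3, against 221.6, 208.3 and 204.0 CPM in the LiCl replicates in the same order. All LiCl samples were below all controls, and control replicate 3 was the closest to them. The log2 fold change was -0.59 ± 0.10 (SE; edgeR adjusted p = 0.0017), so that 66.5% of the control level was left. *Krt18* (ENSMUSG00000023043), its type I partner, had 245.5, 214.1 and 180.9 CPM in the controls against 147.2, 133.6 and 127.0 CPM with LiCl. Again the groups did not overlap, with a log2 fold change of -0.65 ± 0.10 (edgeR adjusted p = 0.00089). Neither gene reached the fold change of a call. Without LiCl replicates 1 and 3, the values were -0.60 for *Krt8* and -0.67 for *Krt18*. Of the 100-base stretches of the longest *Krt8* transcript, 16.9% are also found in the pseudogene *Krt8-ps*, and reads from these cannot be assigned with certainty.

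The ratio of the partners overlapped between the groups. *Krt8* over *Krt18*, as FPKM, was 1.11, 1.09 and 1.07 in the controls and 1.11, 1.15 and 1.18 in the LiCl samples. The difference of 0.07 on the log2 scale had an exact permutation p = 0.2 (two-sided; the smallest p that 3 against 3 samples can give is 0.1). Across the 6 samples, *Krt18* was also among the 5 genes with the pattern most like that of *Krt8* (Pearson r of log2 CPM 0.9944, n = 6), beside *Pold4* (0.9948), *Esrp1* (0.9947), *Slc38a4* (0.9945) and *Tmem123* (0.9927). These correlations share the treatment contrast and the 6 libraries and are given as a description.

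*Krt7* and *Krt19*, the accompanying chains of simple and ductal epithelia, fell furthest of the listed keratins. *Krt7* (ENSMUSG00000023039), of type II, had 138.2, 132.5 and 114.1 CPM in the controls and 44.2, 39.7 and 40.7 CPM in the LiCl samples. The lowest control was thus far above the highest LiCl sample. Its log2 fold change was -1.63 ± 0.08 (edgeR adjusted p = 1e-06), a 3.09-fold lower level, and between -1.70 and -1.57 when any 1 sample was left out. *Krt7* was also the only listed keratin that passed when glmTreat in edgeR asked for a change beyond 1 on the log2 scale. *Krt19* (ENSMUSG00000020911), of type I, had 105.1, 90.2 and 72.5 CPM in the controls against 42.4, 37.2 and 37.1 CPM with LiCl. No overlap was seen between the groups, although the controls spread more than those of *Krt7*. Here the log2 fold change was -1.20 ± 0.12 (edgeR adjusted p = 7.8e-05), a 2.29-fold lower level. Without LiCl replicates 1 and 3, the values were -1.68 for *Krt7* and -1.25 for *Krt19*, and both were still called.

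Relative to *Krt19*, *Krt7* was lower in each LiCl sample than in each control. The ratio of *Krt7* to *Krt19* FPKM was 0.346, 0.387 and 0.415 in the controls against 0.274, 0.281 and 0.289 with LiCl. The difference was -0.44 on the log2 scale, at the smallest exact permutation p of 0.1 and 0.2 after Benjamini-Hochberg adjustment over the 4 pairs tested. The 5 genes with the pattern most like that of *Krt7* over the 6 samples were *Gm30655*, *Pid1*, *Aqp3*, *Cldn8* and *Adgrg1* (Pearson r 0.9984 to 0.9997). They were picked for their likeness to *Krt7*, which was lower with LiCl, so their shared lower level follows from the choice. Their log2 fold changes ran from -0.42 for *Pid1* to -3.14 for the water and glycerol channel gene *Aqp3*.

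The promoter windows of the abundant pair, of the most strongly lowered keratin and of the basal keratin *Krt5* are shown for comparison, since these 4 genes lie on the same chromosome. RefSeq gives windows of 250 bases before and 50 after the start for 7 of the 10 genes (GRCm38.p6, an older build than the GRCm39 of the counts). Both strands were searched for the TATA box (TATAAA), the TCF/LEF core (CTTTGA), the forkhead core (TGTTTA), the SP/KLF box (GGGCGG), the AP-1 site (TGANTCA) and the GATA site (AGATAA), and matches are in capitals, read 5′ to 3′ on the strand of the gene.
Krt8, chr15:102004293-102004592, strand -: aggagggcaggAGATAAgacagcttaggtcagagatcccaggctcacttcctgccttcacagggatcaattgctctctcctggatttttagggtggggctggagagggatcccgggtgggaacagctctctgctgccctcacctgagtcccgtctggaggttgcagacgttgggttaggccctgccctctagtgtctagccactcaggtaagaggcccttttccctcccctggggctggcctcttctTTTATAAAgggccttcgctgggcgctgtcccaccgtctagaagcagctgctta
Krt18, chr15:102027966-102028265, strand +: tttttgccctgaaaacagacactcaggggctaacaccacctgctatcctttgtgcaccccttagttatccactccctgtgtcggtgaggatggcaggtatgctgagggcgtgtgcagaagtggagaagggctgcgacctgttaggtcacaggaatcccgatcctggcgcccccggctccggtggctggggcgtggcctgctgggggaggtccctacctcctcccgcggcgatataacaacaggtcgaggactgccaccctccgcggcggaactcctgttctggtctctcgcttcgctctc
Krt7, chr15:101412153-101412452, strand +: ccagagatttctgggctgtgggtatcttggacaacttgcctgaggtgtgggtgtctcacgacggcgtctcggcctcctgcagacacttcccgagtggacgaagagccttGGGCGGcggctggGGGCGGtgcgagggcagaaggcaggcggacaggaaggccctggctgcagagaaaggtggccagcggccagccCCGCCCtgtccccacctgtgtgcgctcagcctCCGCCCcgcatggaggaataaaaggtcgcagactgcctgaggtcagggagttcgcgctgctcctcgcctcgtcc
Krt5, chr15:101712856-101713155, strand -: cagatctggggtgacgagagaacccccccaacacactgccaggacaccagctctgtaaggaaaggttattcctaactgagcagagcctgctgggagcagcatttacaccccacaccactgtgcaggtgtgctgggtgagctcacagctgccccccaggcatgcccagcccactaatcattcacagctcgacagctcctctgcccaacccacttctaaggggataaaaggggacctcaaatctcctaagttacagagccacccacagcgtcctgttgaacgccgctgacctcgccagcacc

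*Krt8* and *Krt18* are direct neighbours on opposite strands. The *Krt8* window held a GATA site, found in 11.2% of all 32851 windows of the table, and overlapping TATA boxes on both strands at the annotated start (13.6% of windows). The *Krt7* window held 4 SP/KLF boxes, with at least 1 in 35.7% of all windows. The windows of *Krt18*, *Krt5* and *Krt14* held none of the 6 motifs, and that of *Krt20* held a GATA site, a forkhead core and a TATA box. *Krt13* has more than 1 window. The window with 4 matches held AP-1 sites and forkhead cores, and the window with 1 match held an AP-1 site. AP-1 sites are in 7.81% and forkhead cores in 13.4% of all windows. CTTTGA, present in 16% of all windows, was in none of the windows of the 7 genes. The matches describe the letters of these windows and do not locate binding sites.

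The keratins of stratified epithelia were present at far lower levels and did not move together. *Krt15* (ENSMUSG00000054146), a type I keratin of basal cells, had 13.5, 11.8 and 8.03 CPM in the controls against 6.37, 6.55 and 5.43 CPM with LiCl. The groups were separate, but control replicate 3 was close to the LiCl samples. The log2 fold change was -0.86 ± 0.18 (edgeR adjusted p = 0.0046), and it was -1.04, past the threshold of a call, without control replicate 3. Without LiCl replicates 1 and 3 it was -0.75 (edgeR adjusted p = 0.079).

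*Krt4* (ENSMUSG00000059668), the type II chain of non-cornified stratified linings, had 2.30, 2.26 and 1.37 CPM in the controls against 0.998, 1.15 and 0.639 CPM with LiCl, from 18 to 70 counts per sample. Each LiCl sample was below each control by a narrow margin. The gene was called with a log2 fold change of -1.08 ± 0.29 (edgeR adjusted p = 0.015), but the call rested on few counts. The log2 fold change was -0.87 without LiCl replicate 3 (edgeR adjusted p = 0.055), -0.97 without control replicate 2 (edgeR adjusted p = 0.051) and -0.96 without control replicate 1, and the gene was not called in any of these fits. It was -0.77 without LiCl replicates 1 and 3 (edgeR adjusted p = 0.20). Its partner *Krt13* (ENSMUSG00000044041) had 1, 2 and 0 counts in the controls against 0, 1 and 1 with LiCl. These counts do not exceed the 3 counts that a count of 0 allows, so *Krt13* was not detectable at this depth, and no ratio of the pair was computed.

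*Krt5* (ENSMUSG00000061527), the type II keratin of basal cells, had 50, 35 and 29 counts in the controls against 70, 73 and 29 with LiCl. LiCl replicates 1 and 2 were above all controls, whereas LiCl replicate 3 was level with control replicate 3. The log2 fold change of 0.63 ± 0.36 did not pass (edgeR adjusted p = 0.19). Without LiCl replicate 3, it was 0.95 with an adjusted p of 0.034, and without LiCl replicates 1 and 3 it was 1.05 with an adjusted p of 0.072. Of its 100-base stretches, 2.38% are shared with *Krt6a* or *Gm5478*.

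*Krt14* (ENSMUSG00000045545), the type I partner of *Krt5*, had 8, 8 and 1 counts in the controls against 13, 13 and 10 with LiCl. The gene counted as measured only through its LiCl samples. A further limit is that 2.88% of its 100-base stretches are shared with *Krt16*, which had at most 2 counts in any sample. All LiCl samples were above all controls, but at no more than 13 counts the log2 fold change of 1.12 ± 0.54 did not pass (edgeR adjusted p = 0.12). It was 1.29 without LiCl replicates 1 and 3 (edgeR adjusted p = 0.32). The ratio of *Krt5* to *Krt14* overlapped between the groups (exact permutation p = 0.4). The ratio of *Krt5* to *Krt15* did not. It was 0.104, 0.0767 and 0.0948 in the controls against 0.284, 0.321 and 0.152 with LiCl, a log2 difference of 1.4 at the smallest exact permutation p of 0.1 (0.2 after Benjamini-Hochberg adjustment).

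*Krt20* (ENSMUSG00000035775), the type I keratin of superficial cells, was close to the limit of detection at this stage. It had 11, 19 and 12 counts in the controls against 11, 7 and 5 with LiCl. Control replicate 1 and LiCl replicate 1 had the same count, and only their library sizes kept the groups apart on the CPM scale. Its log2 fold change of -0.81 ± 0.39 did not pass (edgeR adjusted p = 0.13), and it was -0.87 without LiCl replicates 1 and 3 (edgeR adjusted p = 0.39).

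The plot of fold changes sets the 9 tested keratins beside the rest of the family. The table held 44 further keratin genes, of which 9 were tested and 7 had no count in any sample. Of the tested ones, 1 was called lower and 0 were called higher, beside 4.59% and 2.74% of all tested genes, and the median log2 fold change was -0.04. *Krt23*, a type I keratin and the genomic neighbour of *Krt20*, had 99, 90 and 66 counts in the controls against 13, 9 and 14 with LiCl. The groups were far apart, with a log2 fold change of -2.76 ± 0.28 (edgeR adjusted p = 7.1e-05), a 6.80-fold lower level. *Krt1*, a keratin of the suprabasal epidermis, also passed lower without reaching a call (-0.80 ± 0.17, edgeR adjusted p = 0.0039), whereas its usual partner *Krt10* had a log2 fold change of -0.04 (edgeR adjusted p = 0.75). With edgeR, 0 of the 9 were higher at an unadjusted p under 0.05, but DESeq2, which tested 37, called 2 higher. These were *Krt17*, with 1, 0 and 4 counts in the controls against 16, 12 and 3 with LiCl, and *Krt28*, with 8, 6 and 5 against 25, 9 and 22. The share of all genes that DESeq2 called higher is not given here, and the 2.74% is that of edgeR. Whether 2 of 37 exceeds the DESeq2 share therefore cannot be read from these values.

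**Figure D2:**
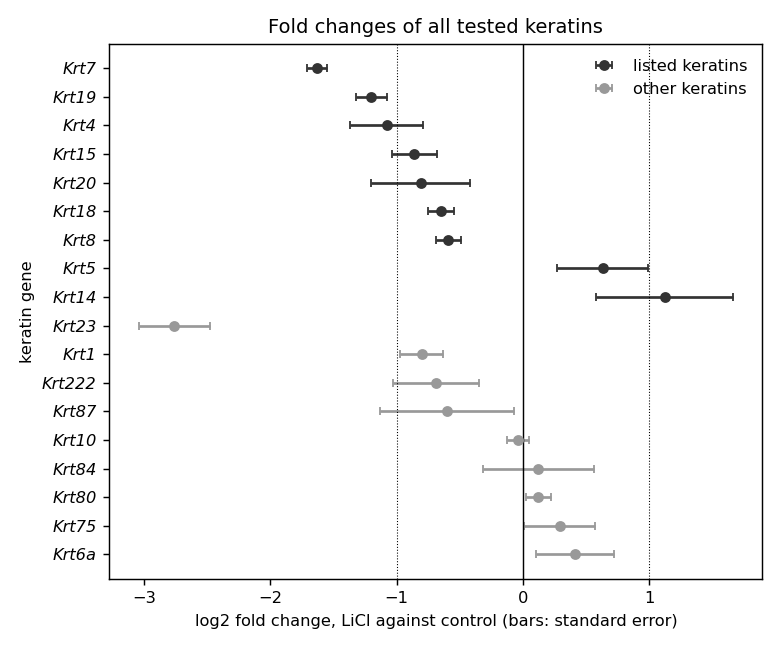
Log2 fold change (LiCl against control, with standard error) of the 9 tested listed keratins (black) and of the 9 other tested keratins (grey), with dotted lines at the call thresholds of -1 and 1. *Krt7* (-1.63), *Krt19* (-1.20), *Krt4* (-1.08) and *Krt23* (-2.76) lie past the lower line and passed the test, while *Krt14* lies past the upper line (1.12) and did not pass.

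Summed over the 10 genes, the keratin pool was 439.0, 385.1 and 319.0 FPKM in the controls against 250.4, 230.6 and 223.2 with LiCl. The sum of every LiCl sample was below that of every control, and the mean was 61.6% of the control mean. The 10 genes held 95.9% to 97.5% of the FPKM of all keratin genes in each sample. Type I chains were at 59.4% and type II chains at 64.0% of their control means. The ratio of type II to type I was 0.898, 0.891 and 0.898 in the controls against 0.935, 0.971 and 0.991 with LiCl, and did not overlap between the groups. It remained below 1 in all 6 samples.

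The composition of the pool moved toward *Krt8* and *Krt18*. Together they made up 80.7% ± 0.355 (SD, n = 3) of the pool in the controls and 86.4% ± 0.201 with LiCl. *Krt8* went from 42.1% ± 0.369 to 46.1% ± 0.806 of the pool and *Krt18* from 38.6% ± 0.439 to 40.3% ± 0.606, although both were lower in absolute terms. The share of *Krt19* went from 12.45% ± 0.284 to 8.94% ± 0.238 and that of *Krt7* from 4.76% ± 0.332 to 2.51% ± 0.0778, as the plot of shares shows. *Krt15* made up 1.61% ± 0.177 and 1.48% ± 0.117. *Krt5* went from 0.148% ± 0.0254 to 0.379% ± 0.155 and *Krt14* from 0.0263% ± 0.0179 to 0.1002% ± 0.0128. Shares of a pool sum to 100% and are given as a description, with no test. The deposited FPKM of *Krt7* imply a length of 7049 bases, whereas its longest transcript in GENCODE M21 has 4094. With transcript lengths, *Krt7* made up 7.75% of the pool in the controls and 4.18% with LiCl, and the order of the 5 abundant genes stayed as above.

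**Figure D3:**
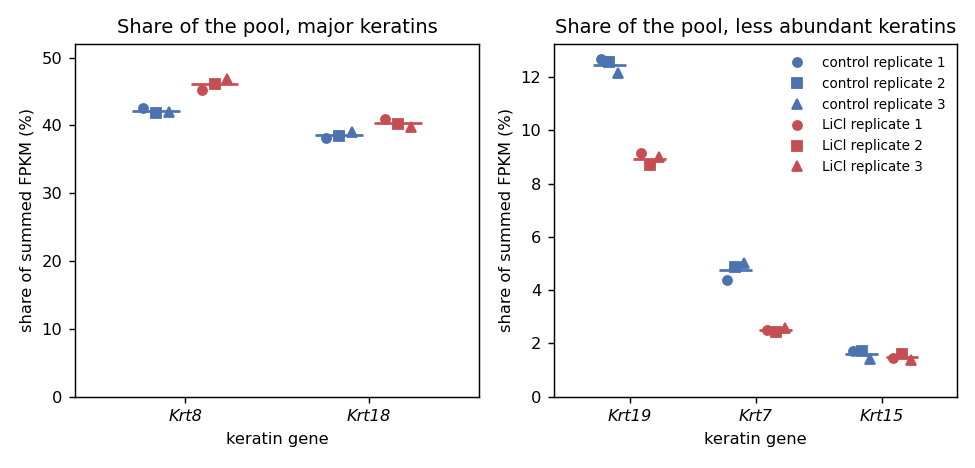
Share (%) of the 5 abundant keratins in the summed FPKM of the 10 listed keratins, for each control (blue) and LiCl (red) sample, with lines for the means of 3 samples. *Krt8* and *Krt18* lie higher with LiCl (46.1% and 40.3%) than in the controls (42.1% and 38.6%), *Krt19* and *Krt7* lie lower, and *Krt15* overlaps.

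To see whether the keratins followed other epithelial genes, each was set against the mean log2 CPM of 15 epithelial genes of the same sample. This reference was itself lower with LiCl, with 5.49, 5.49 and 5.36 in the controls against 5.16, 5.14 and 5.15 with LiCl. Control replicate 3, in which 8 of the 9 keratins had their lowest control level, also had the lowest reference of the controls. Of the 15 genes, 8 passed lower and 1 higher, beside 22.4% and 21.1% of all tested genes. Called lower was 1, the splicing regulator gene *Esrp2* (-1.33 ± 0.09, edgeR adjusted p = 8.5e-06), beside 4.59% of all genes. The median log2 fold change of the 15 was -0.19. The genes for the epithelial adhesion molecules E-cadherin and EpCAM moved in opposite directions, with -0.99 ± 0.07 for *Cdh1* (edgeR adjusted p = 8.5e-06) and 0.37 ± 0.06 for *Epcam* (edgeR adjusted p = 0.00067).

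Relative to this reference, *Krt7* stood at 1.63, 1.57 and 1.48 on the log2 scale in the controls and at 0.32, 0.19 and 0.22 with LiCl, a difference of -1.32. The controls and the LiCl samples were far apart. *Krt19* differed by -0.88, *Krt15* by -0.49, *Krt18* by -0.35 and *Krt8* by -0.28, each with no overlap between the groups. *Krt14* differed by 0.72 in the opposite direction, also with no overlap, but it counted as measured only through the LiCl samples, where it was higher. *Krt4* (-0.49), *Krt5* (0.73) and *Krt20* (-0.04) overlapped. Log2 CPM were taken after adding 0.5 CPM, which shrinks the change of genes near or below that level. *Krt14* and *Krt20* had at most 0.465 and 0.612 CPM in any sample, and *Krt4* as little as 0.639. The differences of these genes are therefore understated, and -0.04 does not show that *Krt20* followed the reference. Each gene without overlap had the smallest exact permutation p of 0.1 (0.15 after Benjamini-Hochberg adjustment over the 9 genes), so that this design cannot take them past 0.05. With *Cdh1* and *Epcam* alone as the reference, which differed by -0.30 between the groups, the directions were the same. This reference averages genes that moved in opposite directions and so lies close to the one of 15 genes. *Cdh1* itself (-0.99) fell more than *Krt8* (-0.59), *Krt18* (-0.65) and *Krt15* (-0.86), so the direction of these keratins depends on the reference gene.

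**Figure D4:**
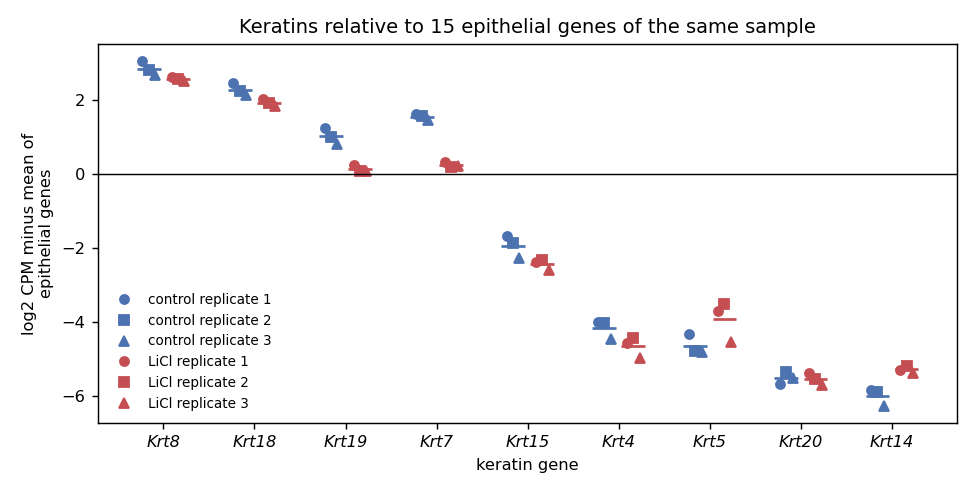
Log2 CPM of 9 keratins minus the mean log2 CPM of 15 epithelial genes in the same sample, for each control (blue) and LiCl (red) sample, with lines for the means of 3 samples; the line at 0 marks the level of the reference. *Krt7* drops from a mean of 1.56 to 0.24 and *Krt19* from 1.03 to 0.15, while *Krt8* and *Krt18* differ by -0.28 and -0.35. Log2 values were taken after adding 0.5 CPM.

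Markers of other cell types that can carry keratins were examined next to these results. Of 7 mesothelial genes tested, 4 passed lower and 1 higher, and 3 were called lower (22.4%, 21.1% and 4.59% of all tested genes). These were *Upk1b* (-1.95 ± 0.25, edgeR adjusted p = 0.00031), *Msln* (-1.22 ± 0.19, edgeR adjusted p = 0.00093) and *Krt19* itself, which belongs to both lists. *Upk1b* is also a uroplakin gene of urothelial cells. *Upk3b* passed lower as well (-0.65 ± 0.20, edgeR adjusted p = 0.024), whereas *Wt1*, for a transcription factor of the mesothelium, passed higher (0.65 ± 0.12, edgeR adjusted p = 0.0018). *Lrrn4* (0.31) and *Gpm6a* (-0.30) did not pass. The summed mesothelial level was 114.5 to 156.5 CPM in the controls and 71.5 to 81.5 with LiCl, most of it from *Krt19*. Without *Krt19* the sums were 42.0 to 51.4 and 34.4 to 41.4 CPM, and without *Krt19* and *Upk1b* they were 32.8 to 34.2 and 30.9 to 37.6 CPM and overlapped. Of 8 genes of the nephric and collecting duct, 3 passed lower and 2 higher, beside 22.4% and 21.1% of all genes. *Calb1* was called higher (1.99 ± 0.23, edgeR adjusted p = 0.00016), as were 2.74% of all genes. The sum over this list was 195.8 to 212.2 CPM and 168.1 to 172.3. Of 10 mesenchymal genes, 7 passed lower (22.4% of all genes) with a median of -0.48, led by *Pdgfra* (-0.85 ± 0.07, edgeR adjusted p = 1.8e-05) and *Twist1* (-0.99 ± 0.09, edgeR adjusted p = 3e-05). Skin and periderm genes summed to 23.9 to 24.4 CPM in the controls and 19.3 to 22.8 with LiCl, with *Krt1* the only one of 6 to pass and *Flg* at 0 in all samples. The only gut endoderm gene tested, *Lgals4*, passed lower (-0.46 ± 0.12, edgeR adjusted p = 0.011), and the sum over that list was 6.30 to 6.56 and 4.55 to 5.21 CPM. The part of these cell types in the keratin values was not tested.

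Keratin filaments are anchored to desmosomes by plakins and armadillo proteins. Of 17 tested genes for such keratin-binding and desmosomal partners, 9 passed lower and 3 higher, beside 22.4% and 21.1% of all tested genes. Among them, 1 was called higher, beside 2.74% of all genes. The median of the 17 was -0.18 on the log2 scale. Genes for 3 plakins that tie keratins to the junction were lower, as were those for plakoglobin and the adaptor stratifin. *Evpl*, for envoplakin, had a log2 fold change of -0.84 ± 0.10 (edgeR adjusted p = 0.0002), *Dsp*, for desmoplakin, of -0.77 ± 0.12 (edgeR adjusted p = 0.0007), and *Ppl*, for periplakin, of -0.31 ± 0.08 (edgeR adjusted p = 0.016). *Jup* and *Sfn* were at -0.57 and -0.63 (edgeR adjusted p = 1.5e-05 and 0.0023). The large plakin genes *Plec* (-0.16) and *Dst* (0.35) did not pass. Desmosomal cadherin genes were not lower. *Dsc3* was called higher (1.5 ± 0.22, edgeR adjusted p = 0.00059), with 29, 27 and 33 counts in the controls against 104, 65 and 75 with LiCl, *Dsg2* was at 0.98 ± 0.07 (edgeR adjusted p = 1.2e-05) and *Dsc2* at 0.03 ± 0.06 (edgeR adjusted p = 0.74). *Dsc3* was named by rule, and the other partners were chosen after their values were seen.

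Among 23 listed transcription factors of epithelia, 11 passed lower and 2 higher, and the median was -0.22. Whether these factors act on the keratin genes was not tested. Of all tested genes, 22.4% passed lower and 21.1% higher. The 3 factors called were all lower, beside 4.59% of all genes. *Foxa1*, a forkhead factor of endodermal and urothelial cells, went from 1884, 1699 and 1524 counts to 555, 469 and 440 (-1.76 ± 0.10, edgeR adjusted p = 2.9e-06). *Pparg*, a nuclear receptor of urothelial differentiation, was at -1.43 ± 0.12 (edgeR adjusted p = 2.7e-05) and *Ehf*, an epithelial ETS factor, at -1.31 ± 0.15 (edgeR adjusted p = 0.00016). *Foxa1*, *Pparg* and *Ehf* did not overlap between the groups. Of the 27 genes of squamous cells and the cornified envelope in the table, 8 were tested, 2 were called lower and 1 passed higher (4.59% and 21.1% of all tested genes). The called ones were small proline-rich protein genes. *Sprr1a* had 354, 416 and 267 counts in the controls against 22, 33 and 35 with LiCl (-3.46 ± 0.24, edgeR adjusted p = 7.2e-06). *Sprr2g*, which has close relatives in its cluster and may share reads with them, had 53, 37 and 40 against 9, 1 and 1 (-3.48 ± 0.54, edgeR adjusted p = 0.00087). At 0 in all samples were 9 genes of this list. The plot of lists shows that the listed keratins had the lowest median of those drawn.

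**Figure D5:**
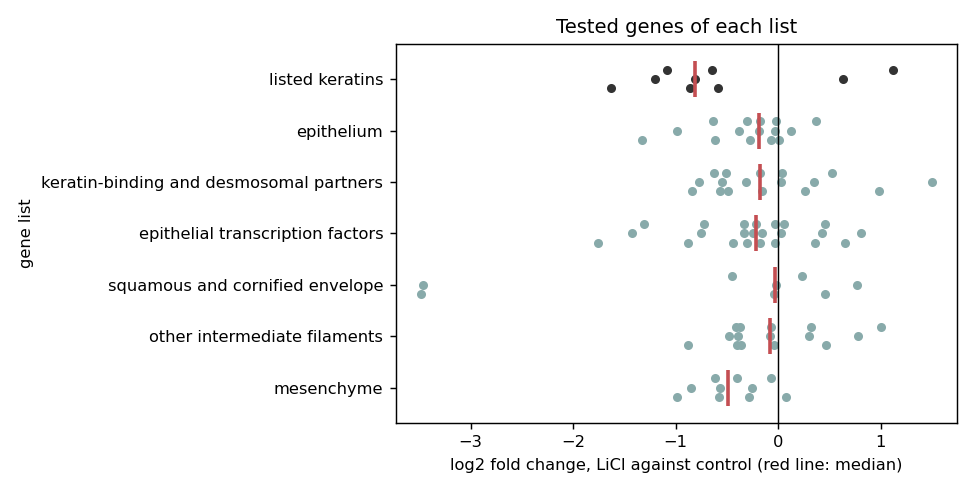
Log2 fold changes (LiCl against control) of the tested genes of the listed keratins (black) and of 6 gene lists (green), each point a gene and each red line the median. The median is -0.81 for the keratins, -0.48 for mesenchyme and between -0.22 and -0.03 for the other lists, and *Sprr1a* and *Sprr2g* stand apart at the left.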

How the data were processed

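RNA-Seq of 3 control and 3 LiCl ureter explant samples was analysed. The authors deposited raw counts per gene and FPKM per sample. The submitters' processing notes name fastp 0.23, STAR 2.7, featureCounts 2.0, DESeq2 1.40 and GRCm39, whereas the methods of the paper name HISAT2 for alignment. The strand setting of the counting and the annotation release are not given in the sources used here. The kit was stranded. The deposited FPKM were counts divided by DESeq2 size factors and a whole-number gene length. This held for 100% of 14310 genes with more than 50 counts (tolerance 0.01 bases). Library totals enter the FPKM only as a constant shared by all samples. Symbols came from GENCODE M21, and 52073 of 56748 identifiers matched. The others held 0.191% of the counts.

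After filterByExpr and TMM scaling, the quasi-likelihood F test of edgeR 4.0.16 (R 4.3.3) compared the counts, with Benjamini-Hochberg adjustment over 18188 genes. Standard errors came from the coefficient and the F statistic, and CPM used TMM library sizes. Ratios and levels relative to epithelial genes were log2 values tested by two-sided exact permutation over samples. Log2 CPM had 0.5 CPM added before the logarithm. As alternatives, the fit was repeated with DESeq2 1.42.0, with RLE size factors, without TMM, with limma 3.58.1 on log2(FPKM + 1) and log2(FPKM + 0.1), with other filters on low counts, with glmTreat, with a replicate block and with samples left out. Leaving out LiCl replicates 1 and 3 together, the use of transcript lengths and the mesothelial sums without *Krt19* and *Upk1b* were chosen after seeing the data. On simulated counts, edgeR recovered 100% of 200 changed genes among 18315 tested, with 2 false calls. The changed genes were all well counted and changed beyond the call threshold, and all genes had the same relative spread between samples. These figures therefore do not cover genes with few counts, smaller changes or a larger spread. Recovery at the count levels and fold changes of the listed keratins was not tested separately.

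The keratins and gene lists were chosen with earlier results of these data known. Named were the 10 keratins, called keratins of the rest of the family, in each list the called genes (at most the 4 with the largest change, otherwise the 2 with the smallest adjusted p) and the 5 genes most correlated with *Krt8* and with *Krt7*. *Krt10*, *Krt17*, *Krt28*, *Cdh1*, *Epcam* and 4 mesothelial genes were named in addition, as were the genes said to be chosen after their values were seen.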

Additional observations from a re-analysis of the deposited data

How the results depend on the processing

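The decrease of *Krt7*, *Krt8*, *Krt18* and *Krt19* kept its direction and its side of the threshold under all 16 alternatives other than glmTreat. Under glmTreat only *Krt7* passed. Leaving out 1 sample at a time gave log2 fold changes from -0.70 to -0.46 for *Krt8*, -0.75 to -0.54 for *Krt18*, -1.32 to -1.06 for *Krt19*, -1.04 to -0.70 for *Krt15* and -1.28 to -0.87 for *Krt4*. The count of listed keratins called lower was 3, between 2 and 4 when 1 sample was left out, and 1 with glmTreat, whose test is built on the threshold itself. Passing higher without a fold change minimum were 0 keratins, and between 0 and 1 without 1 sample (*Krt5*, without LiCl replicate 3). *Krt4* also lost significance under limma on unfiltered log2(FPKM + 1) (-0.41, adjusted p = 0.067), whereas with the filter the value of -0.41 passed (adjusted p = 0.031). With LiCl replicate 2 as the only LiCl sample and the spread taken from the 3 controls, 2 listed keratins were called lower and 4 passed lower, which is not evidence about the samples left out. In the rest of the family, the 1 gene called lower became 2 without a filter (*Krt23* and *Krt78*) and 0 where every sample had to reach 10 counts, since *Krt23* was then not tested. The 0 called higher became 2 with DESeq2 and 2 without a filter (*Krt17* and *Krt28*), and 0 to 1 without 1 sample. The shares of all genes called in these other fits are not given here. The share of *Krt7* in the pool differed by -2.24 percentage points, and by -3.56 with transcript lengths. *Krt20* relative to epithelial genes differed by -0.04, and by -0.12 to 0.04 without 1 sample, with the positive value without control replicate 2 or LiCl replicate 3. The 0.5 CPM added before the logarithm is close to the level of *Krt20* and shrinks its own change in these values. At the depth reached, *Krt14* and *Krt20* had at most 19 counts per sample, which limits what could be detected for them.

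Same-numbered samples did not deviate together (correlations of 0.007, -0.142 and 0.118), which gave no sign of pairs. The labels do not say whether same-numbered samples were paired, and these correlations cannot settle it. With the replicate block, 3 listed keratins were called lower and 6 passed lower as before, *Krt7* had a log2 fold change of -1.62 (adjusted p = 4.9e-05), and the ratios kept their differences (-0.44 for *Krt7* to *Krt19*, 1.4 for *Krt5* to *Krt15*) at a p of 0.25, the smallest that exact permutation within pairs allows.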

Other observations

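Intermediate filament genes outside the keratin family moved in both directions. Of 15 such genes tested, 4 passed lower and 5 higher, where 22.4% and 21.1% of all genes did, with a median of -0.08 on the log2 scale. The lamin genes, which form the filaments under the nuclear envelope of most cell types, were all higher. *Lmna* had 2406, 2837 and 2502 counts in the controls against 5508, 4464 and 4948 with LiCl (1.00 ± 0.06, edgeR adjusted p = 3.7e-06), *Lmnb2* was at 0.47 ± 0.06 (edgeR adjusted p = 0.00017) and *Lmnb1* at 0.32 ± 0.04 (edgeR adjusted p = 0.00031). *Vim*, for the vimentin of mesenchymal cells, was at 0.30 ± 0.06 (edgeR adjusted p = 0.0047), while 7 of 10 mesenchymal marker genes passed lower. *Prph*, for the peripherin of peripheral neurons, was at -0.88 ± 0.18 (edgeR adjusted p = 0.0039), and *Nes*, *Ina* and *Nefl*, for filaments of neural cells, also passed lower with -0.40, -0.37 and -0.36. *Lmna* and *Lmnb2* were named by rule, and the others were chosen after their values were seen.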
